A study of Mus musculus with 2 samples.

Results

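The genes of the anterior pituitary hormones were examined in hippocampal RNA of mice fed astaxanthin (ASX), a red carotenoid of the alga Haematococcus pluvialis, and of control mice. The group has 7 genes, out of 33266 genes and transcripts with a probe on the array. They are Prl (prolactin), Gh (growth hormone), Pomc (proopiomelanocortin), Cga (the alpha subunit shared by the glycoprotein hormones), and Lhb, Fshb and Tshb (the beta subunits of luteinizing hormone, follicle-stimulating hormone and thyrotropin). A probe belonged to a gene when its RefSeq accession matched the gene's symbol, and each of the 7 genes had 1 probe. The genes were chosen by their measured ratios between the RNAs, since Prl and Gh had the largest mean ASX/control ratios among the genes with a symbol, so the ratios given here describe them and carry no test.

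The mice were male C57BL/6J, 11 weeks old and 26 to 28 g at the start, and housed singly. After 1 week of acclimatization they ate, for 4 weeks, chow in which 0.5% by weight was a powder that held 2% astaxanthin, or chow with placebo powder (0%). Hippocampal RNA of both diets was hybridised together on 2 two-colour arrays. Array 1 had Cy5 on the RNA of ASX mice and Cy3 on that of control mice, and array 2 had the reverse. The title of each array names 4 mice, and no label says how their RNA was combined. Each array carried 1 RNA sample per diet, and both were treated as a technical dye swap of the same RNA pair, that is as 1 replicate of the diet. That is an assumption, and the SD between arrays is called technical on it. The number of arrays limits the precision. A gene or transcript is called measured where all 4 readings, of either RNA on either array, were well above background. There were 23603 of these, and 13318 had a symbol. Of the 12 genes listed as markers of hippocampal neurons, 11 had a probe and all 11 were measured, among them Prox1 and C1ql2 of dentate granule cells, Neurod6, and Wfs1 and Fibcd1 of the CA1 field.

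The anterior pituitary is built of cell types that each secrete their own hormone. Lactotropes make prolactin, somatotropes growth hormone, corticotropes the proopiomelanocortin that is cut into ACTH, gonadotropes luteinizing hormone and follicle-stimulating hormone, and thyrotropes thyrotropin. The last 3 hormones pair the common alpha subunit with a beta subunit of their own. The transcription factor POU1F1 (PIT-1) directs the lactotrope, somatotrope and thyrotrope lineages, and releasing and inhibiting factors from the hypothalamus control secretion. Pomc is also expressed by neurons of the hypothalamic arcuate nucleus.

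Upstream sequences are shown for Prl, whose ratio was the farthest from 0 of the 7, for Cga, whose ratio lay next to the size rule used below, and for Lhb, whose ratio differed in sign between the arrays. Each is the 250 bases before the annotated transcription start from RefSeq (GRCm38.p6), all on the plus strand: chr13:27057320-27057569 for Prl, chr4:34893529-34893778 for Cga and chr7:45420696-45420945 for Lhb. Capitals mark matches, on either strand, to ATGNATA (a POU1F1 motif), TGNCCTTG (the gonadotrope element) and TATAAA (the TATA motif).
Prl: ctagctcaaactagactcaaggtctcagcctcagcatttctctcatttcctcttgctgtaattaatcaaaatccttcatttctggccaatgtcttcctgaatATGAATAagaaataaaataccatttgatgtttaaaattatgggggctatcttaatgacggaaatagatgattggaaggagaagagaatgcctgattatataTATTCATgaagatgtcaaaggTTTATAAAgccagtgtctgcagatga
Cga: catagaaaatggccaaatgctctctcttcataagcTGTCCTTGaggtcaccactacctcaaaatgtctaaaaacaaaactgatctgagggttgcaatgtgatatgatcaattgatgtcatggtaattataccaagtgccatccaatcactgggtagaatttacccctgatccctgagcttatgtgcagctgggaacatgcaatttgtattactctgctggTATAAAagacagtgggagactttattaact
Lhb: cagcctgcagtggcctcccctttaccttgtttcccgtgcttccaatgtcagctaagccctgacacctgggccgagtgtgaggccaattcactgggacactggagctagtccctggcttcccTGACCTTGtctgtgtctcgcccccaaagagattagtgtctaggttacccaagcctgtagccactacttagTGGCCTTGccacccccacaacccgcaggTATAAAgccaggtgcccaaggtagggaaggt
The Prl window held ATGNATA at 2 places, from -148 to -142 on the plus strand and from -47 to -41 on the minus strand, counted from the start of transcription. Its TATAAA began at -24 and overlapped a match on the other strand. The Cga window held TGNCCTTG from -215 to -208, and the Lhb window held it from -129 to -122 and from -59 to -52. No upstream window was available for Gh, so it was not searched. Among the 6 members with an upstream window, ATGNATA was found in 1, TGNCCTTG in 2 and TATAAA in 6. Of 32851 RefSeq windows of the same length, 7.92% held ATGNATA, 5.53% TGNCCTTG and 12.4% TATAAA. These matches describe letters in a window and show no binding.

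Prolactin and growth hormone transcripts gave the clearest signals of difference in this group. The Prl spot read 340 scanner units in ASX RNA and 129 in control RNA on array 1, and 277 and 122.5 on array 2. After subtraction of the local background these were 267 and 61.5 on array 1, and 210 and 50.5 on array 2. The ASX signal was thus the higher on both arrays, with either dye, by 4.34 and 4.16 times before any normalization. The Gh spot read 325 in ASX RNA and 126 in control RNA on array 1, and 223.5 and 146.5 on array 2. Net of local background, the Gh signals were 260 and 63.0 on array 1, and 161 and 75.5 on array 2, ratios of 4.13 and 2.13. The ASX signal of Gh was the higher on both arrays, and the gap was smaller on array 2.

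Both genes were close to the floor of the assay in the control RNA. The 95th percentile of the net signal of 153 negative control spots was 17.4 in ASX RNA and 24.5 in control RNA on array 1, and 23.6 and 17.2 on array 2. The control net signal of Prl was 2.51 times that percentile on array 1 and 2.94 times on array 2. That of Gh was 2.57 and 4.39 times. The ASX net signal was 15.3 and 8.90 times the percentile for Prl, and 14.9 and 6.82 times for Gh. All 4 readings of each gene were called well above background by the scanner software.

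**Figure D1:**
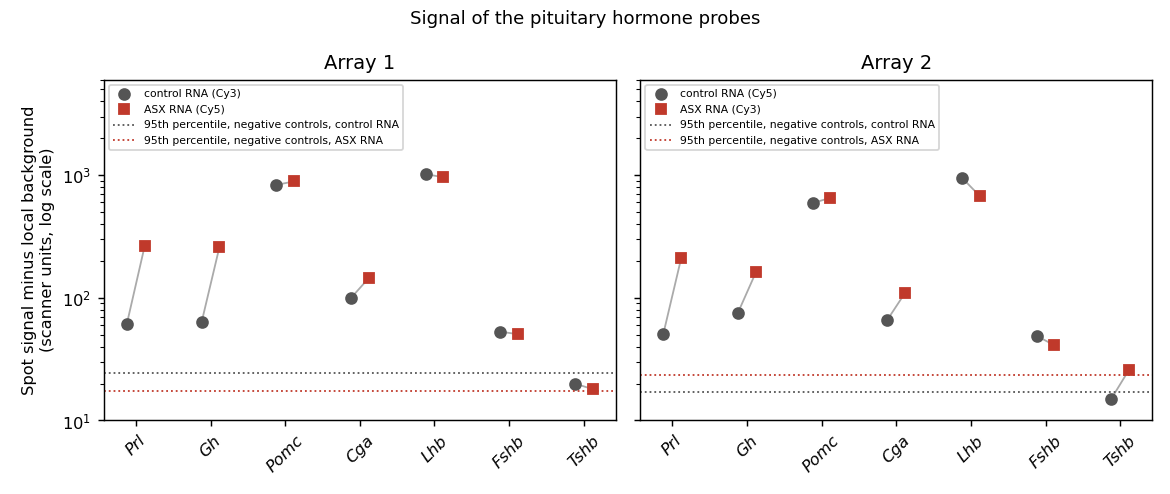
Net signal (spot minus local background, scanner units, log axis) of the probe of each hormone gene in ASX RNA (squares) and control RNA (circles), 1 panel per array; dotted lines are the 95th percentiles of 153 negative control spots. The ASX signal of Prl lay above its control signal on both arrays, 267 against 61.5 and 210 against 50.5, and the Tshb signals lay near the dotted lines; values of different probes are not comparable as levels, and the dyes are not normalized.

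The other hormone genes differed less between the RNAs, and Tshb was not detected. The Cga spot read 215 in ASX RNA and 162 in control RNA on array 1, and 174 and 138.5 on array 2, or net ratios of 1.46 and 1.67. Pomc read 957 and 894 on array 1, and 719 and 657 on array 2. For both Cga and Pomc the ASX reading was the higher on each array. Lhb read 1028 in ASX RNA and 1085.5 in control RNA on array 1, and 739.5 and 1023.5 on array 2. Fshb read 118 and 115, then 107 and 117.5, and its net signals of 41.0 to 53.0 were 1.74 to 2.90 times the negative control percentiles. Tshb read 81 and 86 on array 1 and 89 and 79 on array 2, and it was not well above background for either RNA on either array. These unnormalized readings still hold the difference between the dyes and any difference in total signal between the RNAs. The Pomc net ratios were 1.068 on array 1 and 1.103 on array 2. After background correction and normalization its mean ratio was 1.37-fold, so much of the Pomc ratio came with the processing. The Prl and Gh ratios became smaller with this processing on each array. With plain subtraction of the local background before the same normalization, both became larger on each array instead. The log2 ratios were then 2.405 and 2.255 for Prl, and 2.332 and 1.306 for Gh. The decrease thus came with the choice of background correction.

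After background correction and loess normalization, the size rule called a gene higher or lower where its ASX/control ratio reached 1.5-fold (0.585 on the log2 scale) in the same direction on each array. By this rule 2 of the 6 measured hormone genes, Prl and Gh, were higher and 0 were lower. Of all genes and transcripts measured, 0.0636% (15 of 23603) were higher and 0.0212% (5) were lower. The choice of the genes used these same ratios, so nothing is read from the contrast between those shares. With 1 replicate, the diet could not be tested.

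The log2 ratio of Prl was 1.72 (array 1) and 1.53 (array 2), with a mean of 1.62 ± 0.13 (technical SD, 2 arrays), a 3.08-fold mean ratio. By mean ratio it ranked at place 1 of the 23603. Gh had 1.66 on array 1 and 0.91 on array 2, a mean of 1.29 ± 0.53 and a 2.44-fold ratio, at place 4 of all and place 2 among genes with a symbol. The Gh ratio was thus above the rule on both arrays and the less repeatable of the pair.

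Cga, with 0.578 on array 1 and 0.576 on array 2, lay just under the rule, at a mean 1.49-fold ratio and place 38. Pomc had 0.38 and 0.53, a mean of 0.45 ± 0.11 and a 1.37-fold ratio, at place 117. Both genes were above 0 on each array and neither passed the rule.

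Lhb had 0.20 and -0.05, a mean of 0.08 ± 0.18. Fshb had 0.16 and -0.15, so its reading was the higher for the RNA in Cy5 on each array, and its mean ratio was 1.00-fold. With this normalization, neither gene for a gonadotropin beta subunit kept one sign across the dye exchange. In the order of mean ratios, Prl and Gh came first, followed by Cga, Pomc, Lhb and Fshb. The array ranges of the neighbours Prl and Gh overlapped, as did those of Lhb and Fshb, while the ranges of Gh and Cga, of Cga and Pomc, and of Pomc and Lhb did not.

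**Figure D2:**
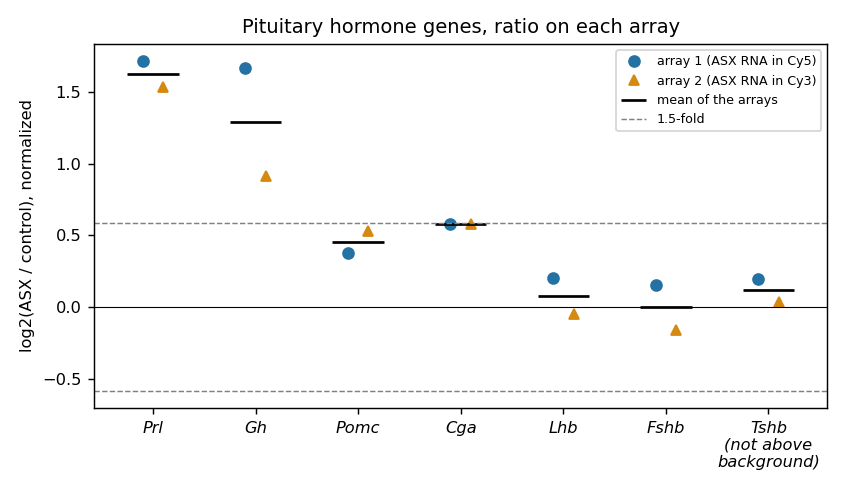
Normalized log2(ASX / control) of each hormone gene on array 1 (circles) and array 2 (triangles), with their mean (bar) and the 1.5-fold lines (dashed). Prl (1.72 and 1.53) and Gh (1.66 and 0.91) lay above the line on both arrays, Cga just under it, and Lhb and Fshb on both sides of 0; Tshb is drawn without being above background.

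In sum over the group, 4 of the 6 measured members were above 0 on both arrays, 0 were below 0 on both, and 2 differed in sign. The same shares over all genes measured were 22.2% above and 23.0% below. The median of the mean log2 ratios was 0.52 for the measured members, -0.0042 for all genes measured and -0.019 for those with a symbol. At a size of 1.2-fold on each array 4 members were higher, against 1.44% of all genes measured (339). Tshb is in none of these counts, and all 6 others passed the filter through both RNAs.

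Around the threshold, ordered by the smaller of the 2 array ratios, the last gene with a symbol inside it was S100a8, with 0.63 and 0.67. Cga was the nearest outside it, followed by Grin2a, an NMDA receptor subunit gene, with 0.41 and 0.53. No other gene with a symbol lay between Cga and Grin2a in this order.

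**Figure D3:**
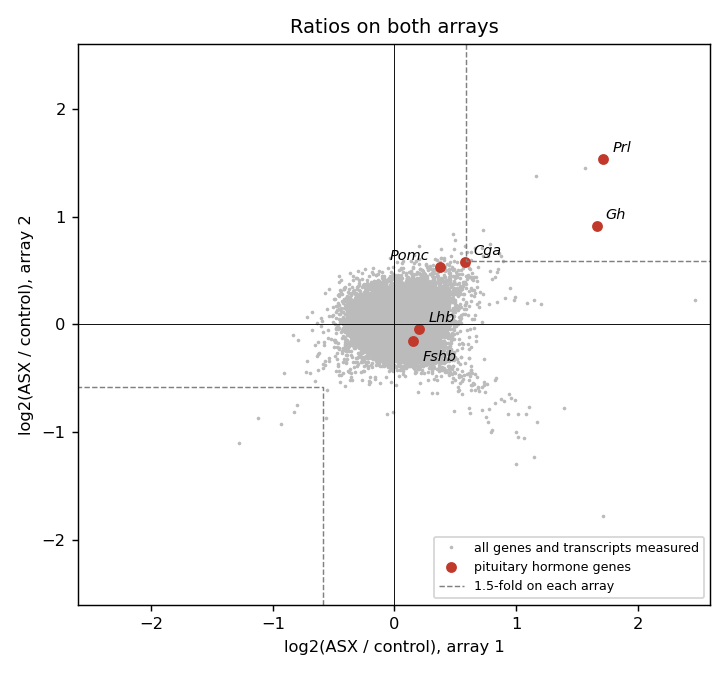
Normalized log2(ASX / control) on array 1 (horizontal) against array 2 (vertical) for all 23603 genes and transcripts measured (grey) and the 6 measured hormone genes (red); dashed corners mark 1.5-fold on each array. Prl (1.72, 1.53) and Gh (1.66, 0.91) lie inside the upper right corner, Cga (0.58, 0.58) at its edge, and Lhb and Fshb within the grey cloud.

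Prl and Gh were dim spots, with a mean log2 brightness of 7.44 each against a median of 9.24 over all genes measured. Ratios of genes of like brightness were therefore set beside theirs. Among the 4367 genes and transcripts within 0.5 of Prl in log2 brightness, the mean log2 ratio had an SD of 0.14 across genes, and 0.114% (5) were higher by the size rule while 1 was lower. That band holds both Prl and Gh. The spots around the Prl spot, within 5 rows and columns, had medians (log2 ratio) of 0.029 and 0.011 on the arrays over 88 probes. Around Gh it was 0.019 and 0.015 over 84 probes, and around Cga 0.016 and 0.011 over 83 probes. The surroundings of these spots were near 0 on both arrays.

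The pair of array ratios of Prl lay at a Euclidean distance of 0.620 log2 units from that of Gh, and Cga lay 1.49 from Prl and 1.14 from Gh. The nearest genes with a symbol were then sought, leaving out the hormone genes and clone, model and accession names. For Prl these were S100a9, S100a8, Cnn1, Rfx3 and Grin2a, at distances of 0.572, 1.39, 1.62, 1.63 and 1.65 in the same units. For Gh they were S100a9 (0.683), S100a8 (1.07), Cnn1 (1.19), Rfx3 (1.22) and Pxmp4 (1.26). S100a9 and S100a8 encode the subunits of calprotectin, a calcium-binding protein abundant in neutrophils, and Cnn1 encodes the smooth muscle protein calponin. S100a9 had log2 ratios of 1.17 and 1.38. A transcript without a symbol, with 1.57 and 1.45, lay nearer to Prl than S100a9 did. Likeness over 2 arrays is a coarse measure, and it mainly orders genes by how far they lie from 0.

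The size of the ratios moved with the processing, while the order of the leading genes held in the settings drawn. The mean log2 ratio of Prl ranged from 1.46 to 2.72 and that of Gh from 1.16 to 2.10 over 11 settings with both arrays, of which 6 gave distinct ratios, and both passed the size rule in all 11. The upper ends came from the log ratios of the scanner software, 2.70 and 2.74 for Prl and 2.64 and 1.56 for Gh. Cga ranged from 0.51 to 0.90 and passed in 4 of the 6 distinct settings: normexp with the offset of 16, plain subtraction, centring on the median and the scanner's log ratios. Pomc ranged from 0.33 to 0.49 and passed in 0. Lhb ranged from -0.06 to 0.11 and Fshb from -0.01 to 0.13, with the arrays differing in sign in all 11.

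The processing moved the counts over all genes as well. The share of higher genes among those passing the rule was 75% (15 higher, 5 lower), 85.5% in the scanner's log ratios (71 and 12), which differ in both background subtraction and dye normalization, 50% after each array was centred on its median (12 and 12), and 10.5% with centring on spike-in spots (4 and 34). Centring on the median shifted the median of all genes to -0.1041, and centring on spike-in spots shifted it to -0.3006. Before normalization the spike-in probes had unequal log2 Cy5/Cy3 ratios, from -2.57 to 2.951 on array 1 and from -2.47 to 3.049 on array 2. Values centred on the median of these spots depend on that mixture. Under spike-in centring Prl (1.40 and 1.53) and Gh (1.35 and 0.91) still passed, Cga had 0.27 and 0.60, and Pomc changed sign between arrays with -0.11 and 0.37. Lhb (-0.28 and -0.23) and Fshb (-0.08 and -0.04) were then below 0 on both arrays, as was the median of all genes. Relative to the median of all genes, the mean under spike-in centring was 0.74 for Cga and 0.43 for Pomc.

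**Figure D4:**
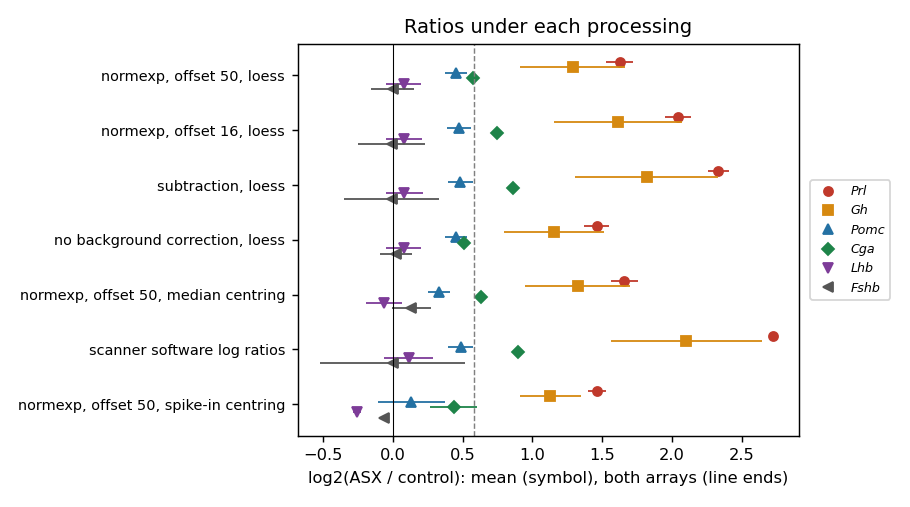
Mean log2(ASX / control) of each measured hormone gene (symbols, with lines to the values of both arrays) under 7 ways of processing the same scans; the dashed line is 1.5-fold. Prl lies between 1.46 and 2.72 and Gh between 1.13 and 2.10, and the values of Lhb and Fshb lie near 0 apart from -0.26 for Lhb with spike-in centring.

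Pituitary cells were looked for through other genes they express. Of 12 transcription factors of pituitary lineages, 4 were measured, 0 passed the size rule in either direction, and the median log2 ratio was -0.05. The defining factors Pou1f1 (lactotropes, somatotropes and thyrotropes), Tbx19 (corticotropes), Pitx1, Hesx1 and Neurod4 were well above background in 0 of 4 readings, and Lhx3 and Isl1 in 2 of 4. Prl and Gh were themselves dim spots, so a factor below background is not read as the absence of its cells. Among the measured factors, Nr5a1, the gonadotrope factor SF-1, had -0.08 and -0.08. The summed net signal of all 12, unnormalized, was 636.0 (array 1) and 631.5 (array 2) in ASX RNA, and 810.5 and 717.5 in control RNA. Of the 12, 6 had no reading above background. These sums also hold any difference in total signal between the RNAs. No sum over all genes was taken, so no difference between the diets is read from these sums. In bulk tissue, more cells of a type and more RNA per cell cannot be told apart, and the part of pituitary cells in the Prl and Gh signals was not tested.

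Receptors through which pituitary cells receive hypothalamic signals gave 6 measured genes of 9 listed, none of them past the rule (0 higher, 0 lower), with a median of -0.10. Drd2, the dopamine receptor that restrains prolactin secretion and is also found in brain, had -0.21 and -0.52, and its other probe -0.00 and -0.11. Trhr, the receptor for thyrotropin-releasing hormone, had -0.28 and -0.22. The receptor gene for gonadotropin-releasing hormone, Gnrhr, was not above background in any reading.

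Of 7 hypothalamic releasing and inhibiting factors, 6 were measured, 0 were higher and 1 was lower, with a median of -0.07. The lower one was Trh, thyrotropin-releasing hormone, which in the pituitary stimulates thyrotropin and prolactin release and is also made by neurons outside the hypothalamus. Its log2 ratios were -1.28 (array 1) and -1.10 (array 2), the opposite direction to Prl. Trh was read by 1 probe, a dim one at 7.33 in log2 brightness, against 7.44 for Prl. A link between the 2 genes was not tested. The posterior pituitary hormones Avp (vasopressin; 0.35 and 0.09) and Oxt (oxytocin; 0.20 and -0.03) did not pass.

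Hypothalamic marker genes gave 8 measured of 12 listed, 0 past the rule and a median of -0.10. Cartpt, the gene of the CART neuropeptide, had -0.27 and -0.35, and Hdc, the histidine decarboxylase of histamine neurons, had -0.26 and -0.17. Nkx2-1, Sim1 and Otp, transcription factors of hypothalamic neurons, were above background in 0 of 4 readings. The summed net signal of the 11 genes with a probe was 12807 and 7029.5 in ASX RNA and 15478 and 12374.5 in control RNA, unnormalized. Of these 11, 3 had no reading above background. Npy was the brightest, at 12.97 in log2 brightness, and Gal the next, at 10.47. Here too no sum over all genes was taken, and no difference between the diets is read from the sums.

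Peptide hormones are cut and packed by enzymes and granule proteins that neurons share with pituitary cells. All 10 such genes were measured, and 0 passed in either direction (median 0.01). Pam, which amidates peptides, had 0.53 and -0.18, and its other probe -0.06 and -0.34. Pcsk1, the prohormone convertase that cuts proopiomelanocortin, had -0.23 and -0.03.

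On the receiving side, 6 of 10 receptor genes of the hormones were measured and 0 passed, with a median of -0.03. The genes of this list farthest from 0 were Mc4r (-0.03 and -0.09) and Mc3r (0.12 and -0.22), brain receptors for melanocortins made from proopiomelanocortin. The receptor genes Lhcgr, Mc5r and Tshr were not above background in any of 4 readings. Of 10 genes that act in or respond to JAK-STAT signalling from the prolactin and growth hormone receptors, 9 were measured and 0 passed, with a median of -0.05. Igfbp3, an IGF-binding protein gene, had -0.27 and -0.09, and Cish, a feedback inhibitor induced by STAT5, had -0.17 and -0.16. Hormone receptors and downstream genes thus held no gene past the size rule.

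Genes related to the hormones in sequence were read by probes of their own. Mice have a large family of prolactin-like genes, most of them expressed in the placenta. Of 21 such genes with 25 probes, 2 were measured: Prl2c3 with 0.18 and 0.08, and Prl3b1 with 0.26 and 0.17. The other 23 probes were above background in 0 of 4 readings. Of the 2 other glycoprotein hormone subunit genes, Gpha2 had 0.24 and -0.04, and Gphb5 was not above background. Among markers of hippocampal neurons 0 of 11 passed (median 0.06), and those farthest from 0 were Zbtb20, a transcription factor of hippocampal neurons, with 0.09 and 0.46, and Grp, gastrin-releasing peptide, with 0.04 and 0.25. Each list median is set against the -0.0042 of all genes measured.

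**Figure D5:**
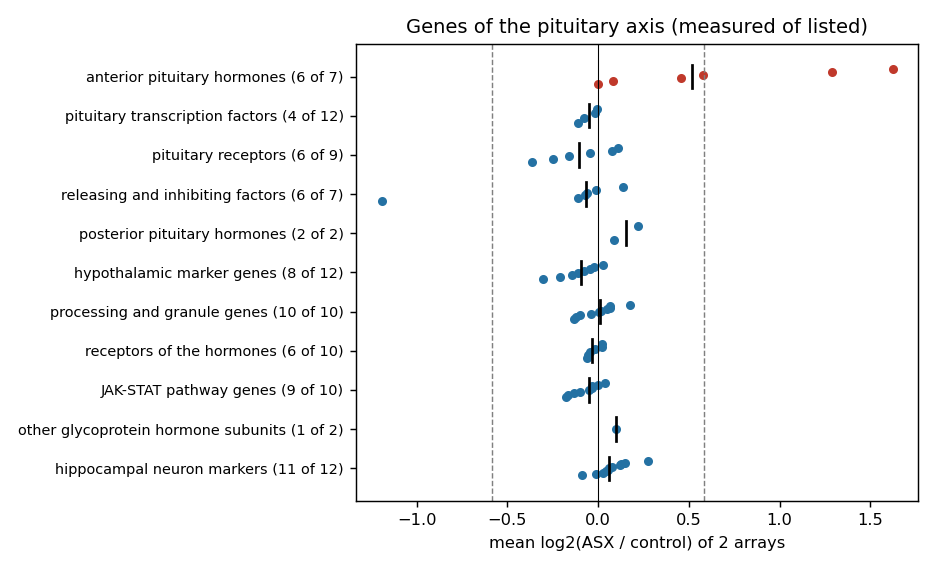
Mean log2(ASX / control) of 2 arrays for each measured gene (points) of the hormone genes and of 10 related lists, with the median of each list (bar) and the 1.5-fold lines (dashed); the labels give measured of listed genes. The 2 hormone genes to the right are Prl (1.62) and Gh (1.29), and the gene to the left is Trh (-1.19), while the medians of the other lists lie between -0.10 and 0.15.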

How the data were processed

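Total RNA of mouse hippocampus was hybridised to 2 two-colour Agilent arrays with the dyes exchanged, treated as a dye swap of 1 pair of RNA samples, which no label states. Agilent Feature Extraction 11.0.1.1 made the deposited files, per the submitters' processing notes. Their intensity values are medians over the pixels of a spot and of its local surroundings, for each dye, without normalization by the authors. The deposited log10 ratio of Cy5 over Cy3, background-subtracted and dye-normalized by the scanner software per the file headers, and the authors' value table, which equalled it within 5e-08, served as alternatives. The authors' log10 values were converted to log2 and turned to ASX over control.

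Backgrounds were corrected with limma 3.58.1 in R 4.3.3 (normexp, offset 50) and each array was loess-normalized, giving control spots a weight of 0. Such spots (1639 of 45018) and 3 non-uniform outlier spots were left out; 0 spots were saturated. Probes were kept if all 4 readings were well above background (30081 of 41174, 73.1%), and the brightest kept probe stood for its gene. Accessions were named through a RefSeq table (GRCm38.p6): 23374 probes matched 1 symbol and 17800 none. The ratio steps were tested on simulated data, where recovery of the set ratios was required only of bright probes. The probes of Prl, Gh, Cga and Fshb were dimmer than those. Negative control spots and upstream windows were summarised in Python.

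The members and lists were chosen with earlier results of these data known. Named were all members, genes of each list past the size rule or otherwise the 2 with the largest absolute mean ratio, and the 5 genes with a symbol nearest in ratios to Prl and to Gh. Members and clone, model and accession names were left out of the search for the nearest genes. Listed genes named as undetected, hippocampal markers named as measured and the genes beside the threshold were chosen after their values were seen. Some genes of the lists are counted but not reported by name here. Alternatives varied background correction, normalization, starting values, filter, probe rule, fold and arrays.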

Additional observations from a re-analysis of the deposited data

How the results depend on the processing

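Mean log2 ratios of Prl moved by more than the SD between arrays from 1.62 to 2.04 (normexp with offset 16), 1.46 (no background correction), 2.33 (plain subtraction), 2.72 (the scanner software's log ratios, and likewise the value table) and 1.46 (spike-in centring, chosen after seeing the data). The SD between arrays was larger for Gh (0.53) than for Prl (0.13). Gh moved by more than its SD, from 1.29 to 2.10, only with the scanner's log ratios and the value table. It was 1.82 with plain subtraction and 1.61 with offset 16, so its ratio depended on the processing as well. The members higher were 4 at 1.2-fold and 1 at 2-fold, against 2, and they were 2 under the other background, normalization, filter and probe settings except those in which Cga also passed. On single arrays, where dye effects do not cancel, Prl lay between 1.53 and 1.72 and Gh between 0.91 and 1.66. Of 117 list medians under alternatives, 95 moved by less than the difference between arrays and 11 took the other sign. Over all genes the counts were 28 higher and 7 lower with offset 16, 37 and 11 with subtraction, 339 and 74 at 1.2-fold, 3 and 1 at 2-fold, 137 and 28 on array 1 alone, and 36 and 47 on array 2 alone. The causes were not tested. A comparison of mean with median spot signals was not run, because the files used here give the median. No paired analysis was possible because the arrays were treated as 1 RNA sample per diet. The control readings of Prl and Gh lie near the negative controls, so their ratios depend on how background is treated, as the settings above show.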
